A study of Mus musculus with 9 samples.

Results

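Genes that build the microtubules of neurons were measured in neurospheres and cultured cells of the auditory nerve and in the nerve itself. They were the tubulin genes Tubb3, Tubb2a, Tubb2b, Tubb4a and Tuba4a and the genes of the microtubule-associated proteins Map2, Mapt, Map1a, Map1b and Dcx. They were taken by name, through every probe set annotated to exactly 1 of them, which gave 25 of the 45037 probe sets on the array and 10 of the 18193 genes tested.

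Microtubules are hollow polymers of alpha and beta tubulin pairs, and mammals have several genes for each. Neurons combine tubulin isotypes that few other cells use with proteins that bind along the polymer, stabilise it and space it in axons and dendrites. In the auditory nerve the long axons belong to spiral ganglion neurons, whose cell bodies the study marked with TuJ1, an antibody to the Tubb3 protein.

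The 9 samples came from the auditory nerve of untreated adult CBA/CaJ mice of both sexes, 8 to 12 weeks of age, and formed groups of 3. Neurospheres, clusters that form in serum-free proliferation medium, were grown from nerve cell cultures for 12 days with heparin (2 µg/ml) and the growth factors FGF (10 ng/ml) and EGF (20 ng/ml). Cultured cells were dissociated nerve, plated on coated dishes in medium with 10% serum and B27 and grown to confluency within 5 to 7 days. Tissue was the dissected nerve, and all groups share the strain and the age range. Whether the 3 samples within a group are separate animals or separate cultures is not in the labels. The p-values thus describe the spread among these samples only, and part of that spread may be technical. The Y-linked genes Eif2s3y, Uty and Kdm5d were at 4.32 to 6.35 (log2) on neurosphere array 2 and 8.45 to 10.6 on the other neurosphere arrays, 2.56 to 3.53 on all cultured cell arrays and 7.86 to 10.3 on tissue arrays. No cultured cell array thus had the signal of male cells that all tissue arrays had, so sex and culture cannot be told apart in cultured cells against tissue. Neurosphere arrays other than array 2 also had that signal, so sex and culture cannot be fully told apart between the cultures either. Xist, an RNA of female cells, was at 12.0, 6.25 and 11.6 on tissue arrays 1 to 3. Tissue arrays and neurosphere arrays thus differed in sex within their group and were not 3 repeats of the same RNA. The cultured cell arrays were alike in these genes, so for them the whole spread may be technical.

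In neurospheres and in cultured cells alike, 9 of the 10 genes were lower than in tissue and Tubb2b was higher. A gene passed where its fold change exceeded 1.5 and its Benjamini-Hochberg adjusted p, taken over all 18193 genes, was under 0.05 (limma on log2 signals, 2-sided, 3 arrays against 3). By this rule 9 members fell and 1 rose in neurospheres against tissue, where 21.0% of all genes fell and 21.7% rose. In cultured cells against tissue the counts were again 9 and 1, where 22.0% of all genes fell and 20.4% rose. The median log2 fold change of the members was -3.11 in neurospheres and -3.09 in cultured cells, against 0.047 and -0.0091 over all genes. For each of the 10 members culture and tissue arrays did not overlap, which was also so for 68.1% and 68.6% of all genes. Such separation was thus common. Both comparisons use the same 3 tissue arrays, so these counts are not independent of each other. In bulk RNA, fewer cells of a type and less RNA per cell cannot be told apart.

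**Figure D1:**
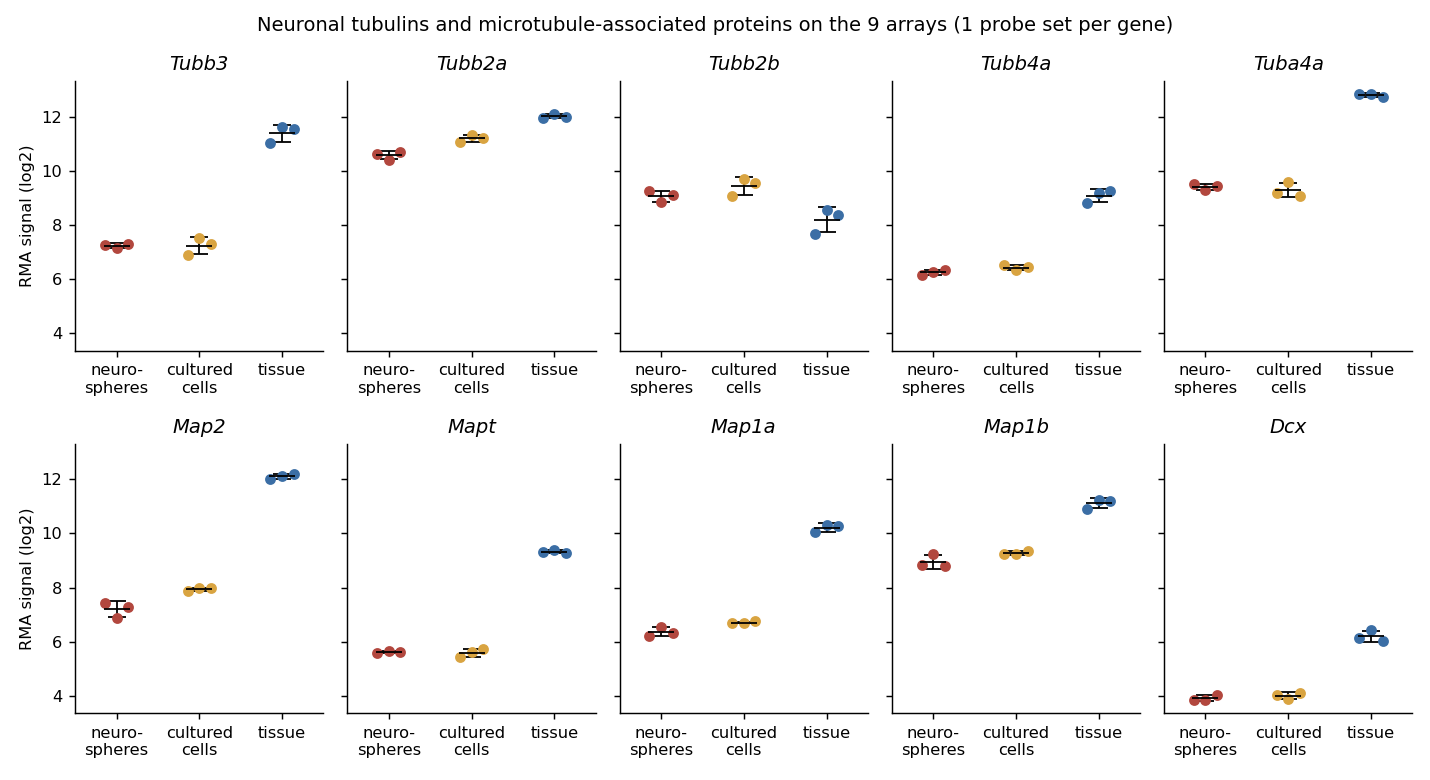
RMA signal (y axis, log2) of the 10 genes on each array, 1 probe set per gene, with points for the 3 arrays of neurospheres, cultured cells and tissue and bars for the mean ± SD. Levels are comparable between groups within a gene and not between genes, and tissue lies above both cultures in every panel other than that of Tubb2b.

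Tubb3, the class III beta tubulin of neurons (chromosome 8, 123411553 to 123422015, GRCm38.p6), had log2 signals of 7.25, 7.13 and 7.30 on neurosphere arrays 1 to 3, 6.88, 7.50 and 7.29 on cultured cell arrays and 11.03, 11.61 and 11.53 on tissue arrays. The 6 culture arrays overlapped with each other and lay below all tissue arrays. Its log2 fold change was -4.16 (SE 0.15, 17.9-fold lower, adjusted p = 4.49e-08) in neurospheres against tissue and -4.17 (SE 0.19, adjusted p = 3.83e-08) in cultured cells against tissue. Between neurospheres and cultured cells the difference was 0.0052 with a 95% interval of -0.34 to 0.36 (adjusted p = 0.983). Only 1 probe set of the array named Tubb3 alone.

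Tubb4a, a beta tubulin of neurons and oligodendrocytes (chromosome 17, 57080061 to 57087600), was at 6.16, 6.24 and 6.32 (log2) in neurospheres, 6.52, 6.31 and 6.42 in cultured cells and 8.82, 9.19 and 9.24 in tissue. No culture array reached the lowest tissue array, and the log2 fold changes were -2.84 (SE 0.12) and -2.66 (SE 0.12) in neurospheres and cultured cells against tissue (adjusted p = 1.38e-07 and 4.72e-08). Tuba4a, an alpha tubulin of mature neurons (chromosome 1, 75214972 to 75221261), was at 9.52, 9.30 and 9.42 in neurospheres, 9.19, 9.58 and 9.08 in cultured cells and 12.85, 12.83 and 12.73 in tissue. These differences were -3.39 (SE 0.092) and -3.52 (SE 0.13, log2), with tissue again apart from all culture arrays. Oligodendrocyte markers averaged 4.68 to 4.93 (log2, 8 genes) on neurosphere arrays, 4.96 to 5.07 on cultured cell arrays and 8.94 to 9.11 on tissue arrays.

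Tubb2a and Tubb2b, beta tubulins with near-identical coding sequences, sit side by side on chromosome 13 at 34074278 to 34078008 and 34127008 to 34130354, 49.0 kb apart with 1 annotated gene between them. By the brightest probe set of each gene Tubb2a was lower and Tubb2b higher than in tissue. Tubb2b, an isotype prominent in developing neurons, was at 9.24, 8.85 and 9.09 (log2) in neurospheres, 9.07, 9.68 and 9.56 in cultured cells and 7.67, 8.55 and 8.35 in tissue. All culture arrays lay above all tissue arrays, and tissue array 1 was the lowest of the 9. The log2 fold change of Tubb2b was 0.87 (SE 0.21, 1.82-fold, adjusted p = 0.00676) in neurospheres and 1.24 (SE 0.23, 2.37-fold, adjusted p = 0.00089) in cultured cells. Without tissue replicate 1 the neurosphere value was 0.61, still past the threshold, and with the methods' t-test the adjusted p was 0.0667.

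Tubb2a, the isotype prominent in mature neurons, was at 10.62, 10.40 and 10.70 (log2) in neurospheres, 11.07, 11.34 and 11.20 in cultured cells and 11.96, 12.09 and 12.01 in tissue. The 3 groups did not overlap, with neurospheres lowest and tissue highest. The fold changes were -1.45 (SE 0.10, adjusted p = 2.88e-06) and -0.82 (SE 0.094, adjusted p = 3.53e-05) on the log2 scale. This probe set, 1427347_s_at, carries the mark of sets that can match transcripts of several genes, so its signal cannot be assigned to Tubb2a with certainty. The other probe set of Tubb2a, 1427838_at, has no such mark and averaged 4.93, 4.82 and 4.66 in neurospheres, cultured cells and tissue. Its differences of 0.27 and 0.16 against tissue did not pass (adjusted p = 0.14 and 0.224), so the fall of Tubb2a rests on the set that can match several genes.

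The 4 stretches below are shown because they stand before beta tubulin genes whose brightest probe set fell (Tubb3, Tubb2a, Tubb4a) and before Tubb5, a beta tubulin that rose. Each is the 150 bases before the annotated start, from RefSeq on GRCm38.p6, read 5′ to 3′ on the gene's strand. They lie at chr8:123411403-123411552 (plus strand), chr13:34078009-34078158, chr17:57087601-57087750 and chr17:35838302-35838451 (all minus strand). Capitals mark GGGCGG (GC box), TATAA (TATA box core), CCAAT and TGACG (part of the cyclic AMP response element), searched on both strands, with overlapping matches left as 1 run.
Tubb3: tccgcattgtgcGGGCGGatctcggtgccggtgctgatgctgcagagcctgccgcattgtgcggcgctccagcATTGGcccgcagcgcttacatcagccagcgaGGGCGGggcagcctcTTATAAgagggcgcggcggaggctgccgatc
Tubb2a: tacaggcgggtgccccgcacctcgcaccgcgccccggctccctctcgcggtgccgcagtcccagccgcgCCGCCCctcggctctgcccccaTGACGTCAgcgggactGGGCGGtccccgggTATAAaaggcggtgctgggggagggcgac
Tubb4a: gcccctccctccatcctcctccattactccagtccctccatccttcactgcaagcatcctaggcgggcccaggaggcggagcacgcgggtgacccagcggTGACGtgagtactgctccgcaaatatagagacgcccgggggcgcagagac
Tubb5: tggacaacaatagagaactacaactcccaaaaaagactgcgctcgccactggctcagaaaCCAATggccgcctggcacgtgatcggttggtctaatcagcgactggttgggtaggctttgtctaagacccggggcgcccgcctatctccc

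Among 32851 windows of this length before mouse genes, 28.6% held GGGCGG, 14.2% TATAA, 24.5% CCAAT and 13.3% TGACG. Of the 8 members with an entry (Tubb2b and Mapt had none), 6 held GGGCGG, 4 TATAA, 2 CCAAT and 3 TGACG in at least 1 window. The windows of Tubb3 and Tubb2a each held 2 copies of GGGCGG and TATAA close to the start. There TATAA began 29 to 31 bases before the start, while in Map1b and Dcx it began 98 to 99 bases before it. The window of Tubb4a held TGACG and none of the other 3 motifs, and that of Tubb5 held CCAAT alone. GC content was 68.0% for Tubb3, 76.0% for Tubb2a, 64.7% for Tubb4a and 56.0% for Tubb5, where the median of all windows was 54.0%. A match to letters is no measure of binding.

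Among the other beta tubulins, 2 of 4 rose in neurospheres and 3 of 4 in cultured cells, and none fell. Tubb6, the class V isotype found in many non-neuronal tissues, was at 11.17, 10.85 and 11.10 (log2) in neurospheres, 11.51, 11.75 and 11.58 in cultured cells and 6.29, 6.64 and 6.74 in tissue. Its differences from tissue were 4.49 and 5.06, while a second probe set of Tubb6 had -0.25 and -0.43. Tubb5, an isotype of most dividing cells, was at 12.54, 12.29 and 12.32 in neurospheres, 13.35, 13.23 and 13.17 in cultured cells and 11.61, 11.57 and 11.53 in tissue, and both of its probe sets rose. Tubb4b had a log2 fold change of -0.21 in neurospheres and 0.65 in cultured cells, and that of cultured cells did not pass with 2 of the other scalings (0.57 and 0.58). The beta tubulin genes thus spread over both directions, as the plot of differences from tissue shows.

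**Figure D2:**
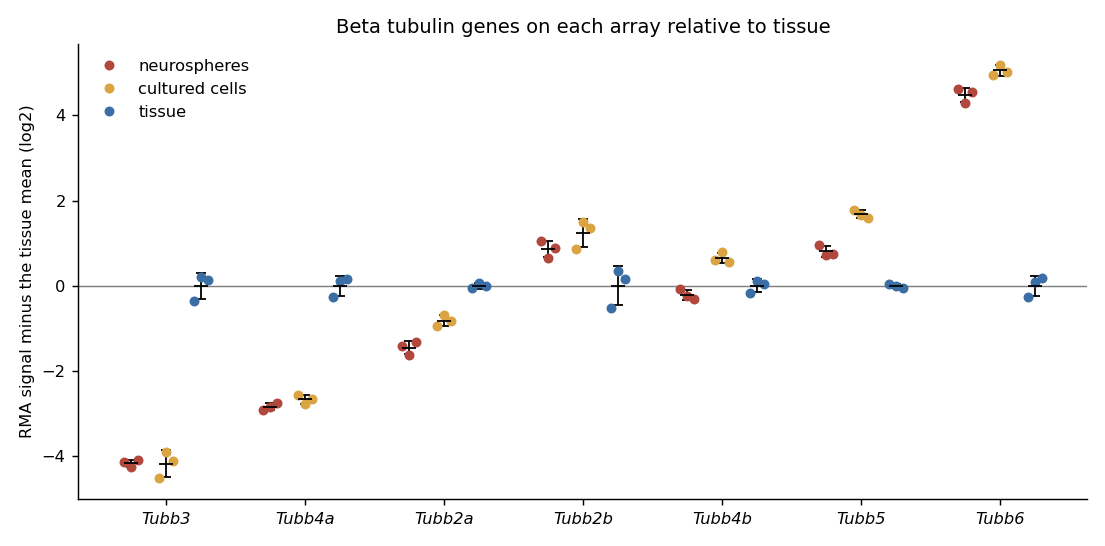
RMA signal of 7 beta tubulin genes minus the mean of the 3 tissue arrays (y axis, log2) on each array of neurospheres, cultured cells and tissue, with bars for the mean ± SD of a group. Tubb3 lies 4.16 and 4.17 below tissue in neurospheres and cultured cells, and Tubb6 lies 4.49 and 5.06 above it.

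Map2, which binds and spaces the microtubules of dendrites and cell bodies (chromosome 1, 66175202 to 66442583), fell furthest of the 10 genes in neurospheres. It was at 7.45, 6.89 and 7.28 (log2) in neurospheres, 7.86, 7.97 and 7.97 in cultured cells and 12.02, 12.12 and 12.21 in tissue. All 3 groups were apart, with neurospheres lowest. The log2 fold change was -4.92 (SE 0.14, 30.2-fold lower, adjusted p = 1.24e-08) in neurospheres and -4.18 (SE 0.087, 18.2-fold lower, adjusted p = 3.02e-10) in cultured cells.

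Mapt encodes tau, the microtubule-associated protein of axons (chromosome 11, 104229409 to 104332090). It was at 5.59, 5.67 and 5.61 (log2) in neurospheres, 5.44, 5.60 and 5.72 in cultured cells and 9.32, 9.38 and 9.29 in tissue. Neurospheres and cultured cells overlapped, and both lay far below tissue with log2 fold changes of -3.71 (SE 0.081, adjusted p = 3.1e-09) and -3.74 (SE 0.093, adjusted p = 9.01e-10).

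Map1a and Map1b are large proteins that link microtubules to other parts of the cytoskeleton, Map1a mainly in mature neurons and Map1b mainly in growing axons. Map1a (chromosome 2, 121289590 to 121310832) was at 6.22, 6.56 and 6.32 (log2) in neurospheres, 6.69, 6.68 and 6.75 in cultured cells and 10.04, 10.33 and 10.28 in tissue. The differences from tissue were -3.85 (SE 0.12) and -3.51 (SE 0.097), and all neurosphere arrays lay below all cultured cell arrays, an order that the other probe set of Map1a did not show. Map1b (chromosome 13, 99421464 to 99516602) was at 8.83, 9.24 and 8.78 in neurospheres, 9.24, 9.25 and 9.35 in cultured cells and 10.90, 11.24 and 11.22 in tissue. Its differences were smaller, -2.17 (SE 0.15) and -1.84 (SE 0.11), and neurosphere array 2 lay among the cultured cells.

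Dcx, doublecortin, marks young migrating neurons (chromosome X, 143855842 to 143933396). It was at 3.84, 3.85 and 4.04 (log2) in neurospheres, 4.02, 3.89 and 4.11 in cultured cells and 6.15, 6.43 and 6.01 in tissue. Both cultures were lower than tissue, at -2.29 (SE 0.12, adjusted p = 4.85e-07) and -2.19 (SE 0.12, adjusted p = 1.49e-07). On the neurosphere arrays 15.4% of all probe sets were dimmer than that of Dcx, and on the tissue arrays 49.2%. The culture values of Dcx lay little above the 2.56 to 3.53 that genes of the Y chromosome had in cultured cells, the level of a dim probe set. Of 8 young neuron genes, 5 fell in neurospheres and 4 in cultured cells, none rose, and Neurog1, Nhlh1 and Insm1 did not pass in either. Over all genes 21.0% fell and 21.7% rose in neurospheres, and 22.0% fell and 20.4% rose in cultured cells.

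**Figure D3:**
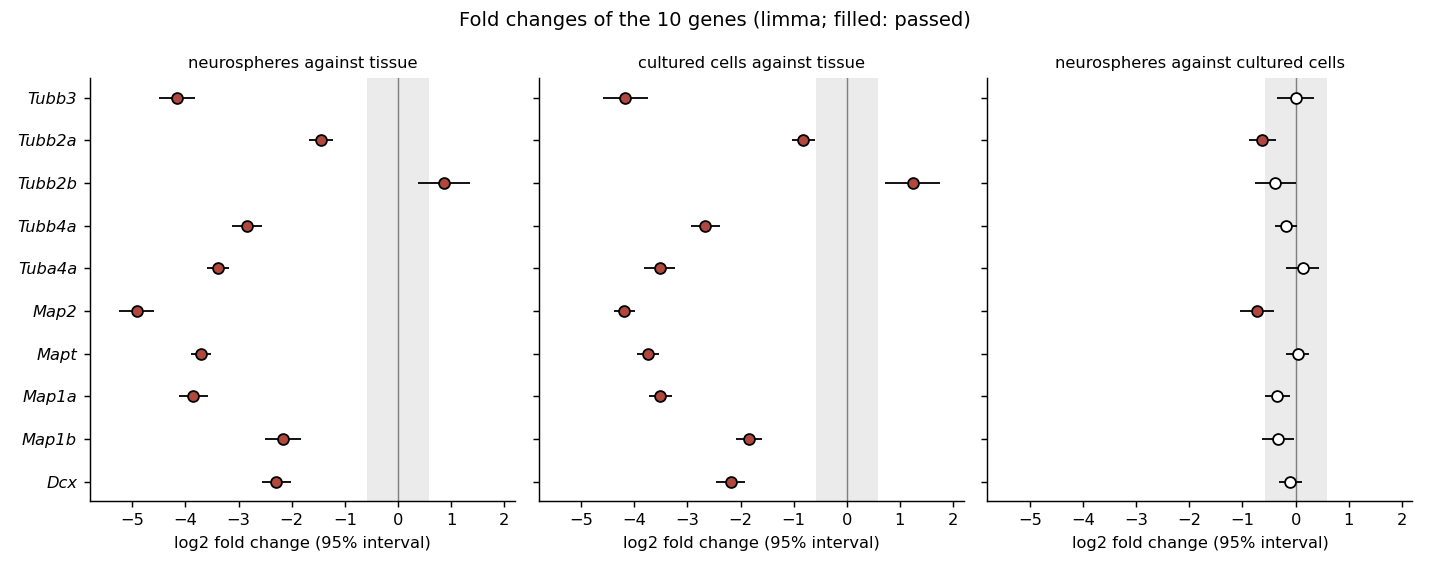
Log2 fold changes (x axis) of the 10 genes in the 3 comparisons that head the panels, with 95% intervals from limma. Filled points passed and the grey band spans fold changes under 1.5. Against tissue every point other than that of Tubb2b lies left of the band, and between the cultures only Tubb2a and Map2 are filled.

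Between neurospheres and cultured cells the members differed little. Map2 fell by 0.73 on the log2 scale (SE 0.14, adjusted p = 0.00408) and Tubb2a by 0.63 (SE 0.11, adjusted p = 0.00255) in neurospheres. These were 2 of 10 members that fell and 0 that rose, where 8.91% of all genes fell and 9.0% rose, and the median was -0.26 for the members and 0.051 for all genes. The arrays of the 2 cultures did not overlap for 3 of 10 members, where this was so for 48.4% of all genes. At an unadjusted p under 0.05 no member rose by limma, nor did any by the methods' t-test. Map1a had a difference of -0.34 (adjusted p = 0.0311), under the fold threshold, but its other probe set had 0.28 and the mean of both -0.031, so its direction depends on the probe set. Those of the other 7 members were between -0.38 for Tubb2b (95% interval -0.77 to 0.014) and 0.13 for Tuba4a (-0.18 to 0.45). By the brightest probe sets the 2 calls depended on neurosphere replicate 2, the lowest array for both genes. Without it Map2 was at -0.57 and Tubb2a at -0.54, which missed the fold threshold alone. The highest adjusted p over the limma fits that left out 1 array was 0.0206 for Map2 and 0.013 for Tubb2a. The other bright set of Map2, 1440699_at, had -0.81 (limma, adjusted p = 0.000312) and was lowest on neurosphere replicate 1. Neurosphere array 2 also stood apart on a Y-linked gene, with Eif2s3y at 6.35 where the other neurosphere arrays had 10.6 and 10.4. Xist, an RNA of female cells, was at 12.8 on it, 5.85 and 8.97 on the others and 12.7 to 12.8 on cultured cell arrays. Sex thus cannot be fully told apart from culture in this comparison, and its part was not tested.

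The probe sets of a gene did not always move together. Of the 25 probe sets, 18 fell, 1 rose and 6 did not pass in neurospheres against tissue, where 18.5% of all probe sets fell and 21.2% rose. In cultured cells against tissue the counts were the same, where 18.9% fell and 21.7% rose. Between neurospheres and cultured cells 3 fell and 0 rose, where 9.62% fell and 7.44% rose, and the 3 were 2 sets of Map2 and 1 of Tubb2a.

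Map2 was measured by 4 probe sets. The 2 brighter, 1434194_at and 1440699_at, had log2 fold changes of -4.92 and -4.99 in neurospheres against tissue and -4.18 and -4.17 in cultured cells. The dimmer 1421328_at, at 5.17 in tissue, had -1.05 and -0.90, and 1421327_at, at 4.22, 4.39 and 4.33 in neurospheres, cultured cells and tissue, had -0.11 and 0.059 and did not pass. Of the 4 probe sets of Mapt, 1455028_at fell by 5.15 and 5.08, 1424719_a_at by 3.91 and 3.82, and the dim 1417885_at by 0.88 and 0.82. All 4 were thus lower in both cultures, over a range from 0.82 to 5.15. In neurospheres and cultured cells 1455028_at averaged 3.63 and 3.71, and 1424719_a_at 3.95 and 4.03. These means lay little above the 2.56 to 3.53 of dim probe sets, so the sizes of their falls are not well determined.

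Dcx had 4 probe sets, of which 1418139_at and 1418141_at fell, the second by 2.81 and 2.75. The others, 1418140_at and 1448974_at, were at 3.87 to 4.15 in every group mean and did not pass. The set 1418141_at averaged 3.62 and 3.68 in neurospheres and cultured cells, also little above the level of dim probe sets. The 2 sets of Map1a fell by 3.42 to 3.85 in neurospheres and by 3.51 to 3.70 in cultured cells. Between the cultures they differed in sign, and 1455779_at was at 6.46, 6.65 and 6.64 (log2) in neurospheres and 6.50, 6.15 and 6.26 in cultured cells, where the groups overlapped. For Map1b the bright 1450397_at fell by 2.17 and 1.84, while 1421850_at had -0.61, which passed, and -0.57, which did not, and 1421851_at had -0.46 and -0.32. Among the sets of Tuba4a, 1417374_at fell by 2.95 and 2.87, and 1417375_at had -0.41 in neurospheres (adjusted p = 0.0908) and -0.70 in cultured cells (adjusted p = 0.00766).

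**Figure D4:**
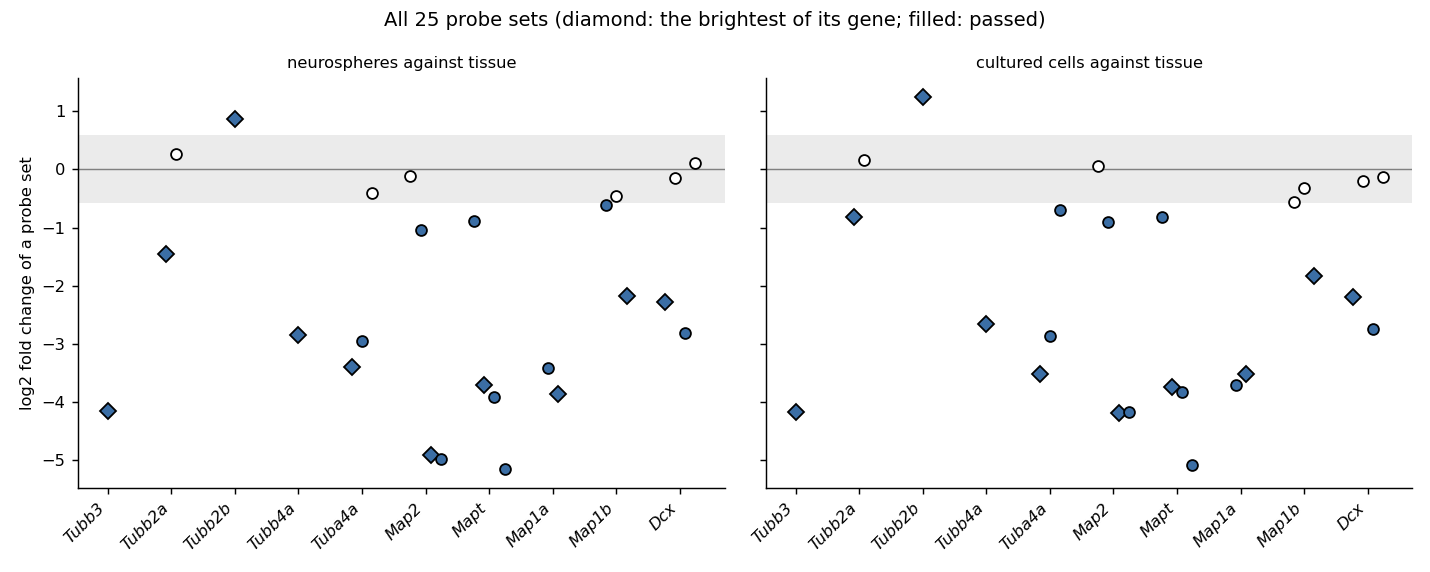
Log2 fold change (y axis) of each of the 25 probe sets in neurospheres against tissue and in cultured cells against tissue, grouped by gene. Diamonds mark the brightest probe set of a gene, filled symbols passed, and the grey band spans fold changes under 1.5. In both panels 18 probe sets are filled below 0 and 1, that of Tubb2b, above it.

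The genes whose signal ran most like each member over the 9 arrays were found by Pearson's r, given without a test because the 3 tissue arrays stand apart from the 6 culture arrays in most of them. Map2 was closest to Kif5c (r = 0.999), the gene of a neuronal kinesin, then Nsf and Spock3. Map1a was closest to Kif1b, Mapt to Cldn5 and Tubb3 to Plxdc2, all at r = 0.999. For each of these 4 members between 1937 and 2219 genes exceeded an r of 0.95, so the leading names are a few of many. Tubb2a had 367 such genes and Tubb2b 23. The gene closest to Tubb2b was Cct6a (r = 0.981), a subunit of the chaperonin that folds tubulin and actin, followed by Usp14 and Psma1 of the proteasome system at 0.966 and 0.965.

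Other genes of the microtubule system were counted in lists. Over all genes 21.0% fell and 21.7% rose in neurospheres against tissue, and 22.0% fell and 20.4% rose in cultured cells against tissue. Of 9 stathmins and CRMPs, which bind tubulin and act in growth cones, 8 fell and 0 rose in neurospheres, with a median of -1.34. Stmn3, at 6.13 ± 0.24 in neurospheres and 13.69 ± 0.026 in tissue (log2, SD, n = 3), had the largest change of the list at -7.56. Stmn2, the stathmin of regenerating axons, fell by 5.74, Stmn4 by 4.31 and Dpysl4 by 3.35. In cultured cells 7 fell and 1 rose, the riser being Dpysl3 at 1.38. Its brightest probe set had 0.52 in neurospheres and did not pass, but 2 of its 3 probe sets rose there, by up to 1.65. Stmn2 differed between the cultures, at 5.11 ± 0.097 in neurospheres and 7.71 ± 0.64 in cultured cells.

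Transport motors carry cargo along the polymer. Of 17, 10 fell and 2 rose in neurospheres (median -1.22), and 9 fell and 2 rose in cultured cells (median -0.81). The largest falls in neurospheres were those of Dync1i1, a dynein intermediate chain of neurons, at -6.60 and of the neuronal kinesin heavy chains Kif5a at -6.37 and Kif5c at -4.98, followed by Kif21a at -3.38. Kif5b, the kinesin heavy chain of most cells, had -0.40 and did not pass, although 2 of its 6 probe sets fell, the lowest at -0.68. Dync1li1 and Kif3b rose, at 1.0 and 0.80. Kif5a had 3 probe sets and 1 fell, while Kif5c had 4 and 2 fell.

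Of 22 other microtubule-associated proteins of interphase, 13 fell in neurospheres and 13 in cultured cells, with 4 and 3 that rose (medians -0.81 and -1.18). Map7d2, a recruiter of kinesin, fell by 5.38 in neurospheres, Camsap3, which binds minus ends, by 2.95, Map6d1 by 2.19 and Mapre2, a plus end protein, by 2.08. The risers in neurospheres were Clip2, Dclk1, Map7d1 and Mapre1, at 0.62 to 0.77, of which Map7d1 and Dclk1 did not pass with 2 of the other scalings. Dclk1, a relative of Dcx, rose by 1.88 in cultured cells, and of its 9 probe sets 5 rose and 1 fell there.

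Mitotic microtubule proteins, which form and move the spindle, went the other way. Of 20, 18 rose and 0 fell in neurospheres (median 3.19) and 19 rose and 0 fell in cultured cells (median 4.93). Birc5 rose by 5.19 in neurospheres, Kif2c by 4.51, Ckap2 by 4.38 and Kif20a by 3.98. In tissue these 4 averaged 3.75, 3.58, 4.73 and 4.21 (log2), and those of Birc5 and Kif2c are at or little above the level of dim probe sets, so the sizes of their rises are not well determined. In neurospheres 19 of the 20 were lower than in cultured cells (median -1.70). With 2 of the other scalings 1 of the 20 fell in cultured cells against tissue. By limma at the same thresholds, these counts compare with 21.7% and 20.4% of all genes that rose in the comparisons with tissue and 8.91% that fell between the cultures.

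**Figure D5:**
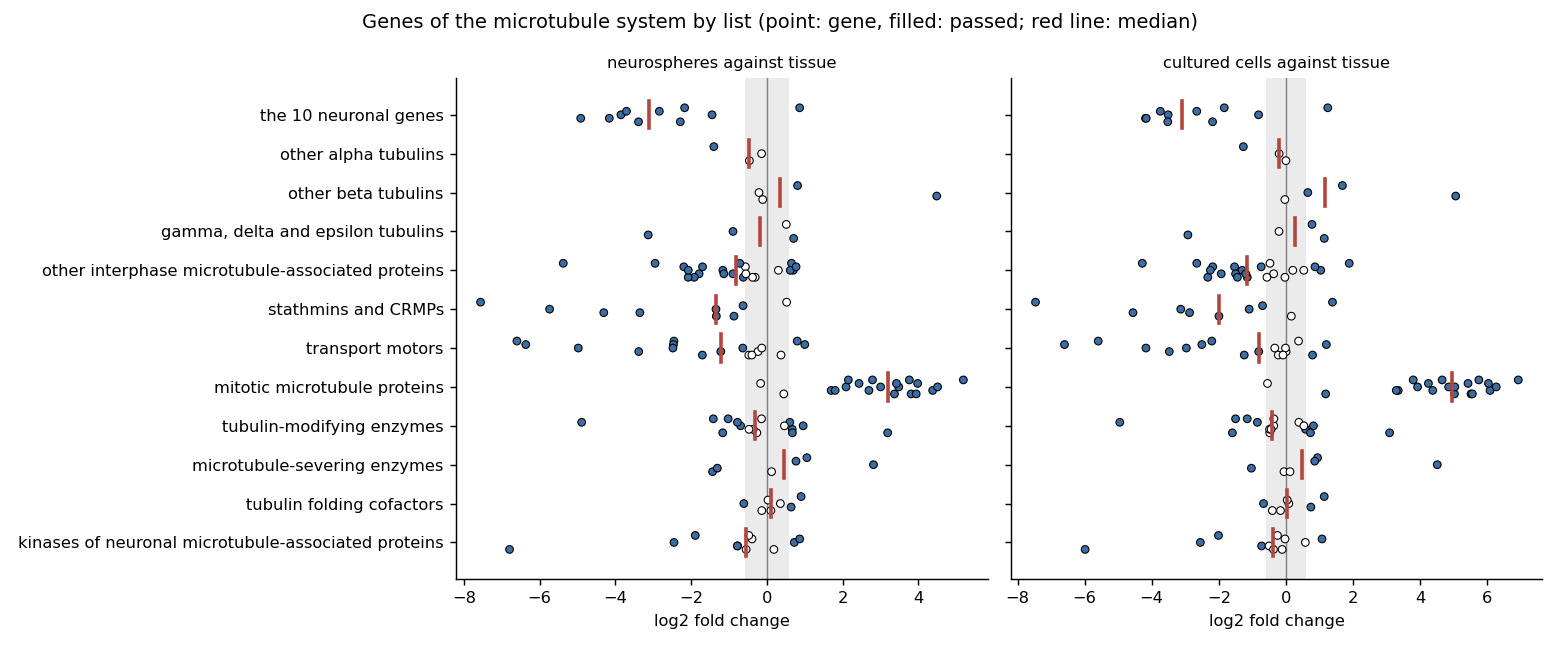
Log2 fold changes (x axis) of the 10 neuronal genes and of 11 lists of other microtubule genes in neurospheres against tissue and cultured cells against tissue. Each point is a gene, filled where it passed, and red lines mark the median of a list, which was -3.11 for the 10 genes and 3.19 for mitotic microtubule proteins in neurospheres.

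The remaining lists held genes of both directions, beside the 21.0% of all genes that fell and 21.7% that rose in neurospheres. Of 16 tubulin-modifying enzymes 6 fell and 5 rose, among them Ttll7, a polyglutamylase of neurons, at -4.89, Vash2, a tubulin tyrosine carboxypeptidase, at 3.19, Ttll5 at -1.41 and Sirt2 at -1.17. The other risers were Svbp, the partner of Vash2, at 0.96, Ttll12 at 0.67, Atat1, the acetylase of alpha tubulin, at 0.67 and Hdac6, a deacetylase, at 0.61. With arrays centred on their brighter genes 2 rather than 5 rose, and with quantiles 4. Of the 4 probe sets of Atat1 2 rose and 2 fell, the lowest at -0.95, so its direction depends on the probe set. Of 6 microtubule-severing enzymes 2 fell and 3 rose, which were Fignl1 at 2.82, Katna1 at 1.06, Katnal2 at 0.77, Katnal1 at -1.31 and Fign at -1.43. Of 7 tubulin folding cofactors Tbcel fell, at -0.61, and Tbcb and Tbcc rose, at 0.90 and 0.64, shares near those of all genes. With arrays centred on their brighter genes 1 of the 7 rose, and with hybridisation controls 0 fell. Of 11 kinases that act on neuronal microtubule-associated proteins 5 fell and 2 rose. Mapk10, the neuronal form of Jnk, had -6.79. Cdk5r1 and Cdk5r2, the activators of Cdk5, had -2.45 and -1.89 and fell, while Cdk5 itself had 0.19 and did not pass. Mark3 and Mapk8 rose, at 0.87 and 0.72, but of the 5 probe sets of Mapk8 3 rose and 1 fell, the lowest at -1.64. Among 3 other alpha tubulins Tuba8 fell by 1.40 and Tuba1a had -0.46, and did not pass. Of 4 gamma, delta and epsilon tubulins Tubg2 and Tube1 fell, at -3.13 and -0.89, and Tubd1 rose, at 0.71. The probe sets of Stmn3, Mapk10 and Tuba1a end in _x_at, the mark of sets that may match other transcripts as well.

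Markers of whole cell types changed in both directions. Of 12 neuron markers 11 fell in neurospheres and 12 in cultured cells, and their mean signal was 6.03 to 6.06 (log2) on neurosphere arrays, 5.64 to 5.88 on cultured cell arrays and 11.72 to 11.89 on tissue arrays. Nefh, Nefl and Rbfox3 fell by 9.30, 7.73 and 5.89 in neurospheres. Fibroblast markers averaged 12.16 to 12.26, 11.97 to 12.30 and 10.46 to 10.82 on neurosphere, cultured cell and tissue arrays (8 genes). Of these 7 rose and 0 fell in neurospheres, or 5 and 1 with arrays centred on their brighter genes, and 5 rose and 1, Dcn at -1.09, fell in cultured cells. Dividing cell markers averaged 9.59 to 10.03, 11.18 to 11.33 and 6.42 to 6.69 (7 genes, all of which rose).

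Markers of other cell types of the nerve, and of hair cells and cochlear epithelium outside it, also fell, so the falls were not confined to neuronal genes. All 7 markers of astrocytes and satellite glia fell in both cultures, with means of 6.85 to 7.11 (log2) on neurosphere arrays, 6.95 to 7.13 on cultured cell arrays and 10.52 to 10.76 on tissue arrays. Of 5 markers of myelinating Schwann cells 4 fell in each, with means of 7.97 to 8.18, 8.11 to 8.43 and 11.69 to 11.84 in the same order. The counts were 7 of 8 for oligodendrocytes, 5 of 6 for macrophages and 5 of 8 for hair cells and cochlear epithelium in both cultures. Their median log2 fold changes were -4.88, -2.66 and -1.16 in neurospheres and -4.89, -2.16 and -0.77 in cultured cells, beside -5.94 and -7.21 for neuron markers. Of 5 endothelial markers 3 fell in each culture, with 2 and 1 that rose, and of 6 markers of smooth muscle and pericytes 3 fell in neurospheres, while 2 fell and 3 rose in cultured cells.

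The actin probe set at the 3′ end exceeded that at the 5′ end by 0.70 ± 0.15 in neurospheres, 0.36 ± 0.037 in cultured cells and 2.71 ± 0.35 in tissue (log2, SD, n = 3), a difference used as a measure of RNA integrity that is larger where RNA is less complete. The part of cell type makeup, of sex and of RNA integrity in the members' differences was not tested.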

How the data were processed

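RNA from 3 neurosphere, 3 cultured cell and 3 tissue samples (100 ng each) had been hybridised to Affymetrix mouse 3′ expression arrays. The authors deposited log2 signals. The labels name RMA and Affymetrix Expression Console as the source of these signals, beside MAS5, without versions. RMA puts all arrays on 1 distribution, so a signal is relative to the rest of its array, and array medians were 6.15 to 6.27 (log2). Precision is limited by the number of arrays.

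Of 45037 probe sets that are no controls, 34945 named 1 gene, 932 several and 9160 none. A table for GRCm38.p6 brought symbols up to date, and 204 were kept as given. Each of 18193 genes was represented by the brightest of its probe sets, judged by the mean of all 9 arrays, a choice that mattered for 9010 genes. The tests were 2-sided and came from lmFit and eBayes of limma 3.58.1 (R 4.3.3), with the default prior and the 6 arrays of a comparison, for genes and again for each probe set, with Benjamini-Hochberg adjustment over all of them. A feature passed where the fold change exceeded 1.5 at an adjusted p under 0.05. The methods of the study name Student's t-test, which was run as an alternative because 3 arrays give a poor estimate of a gene's spread. The steps were tested on simulated data.

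The members, gene lists, thresholds and alternatives were chosen with earlier results of these data known. The text names all members, up to 4 genes of a list with the largest change in neurospheres against tissue among those that passed, those that passed in the other direction, and up to 3 per list between the cultures. Kif5b, Cdk5, Tuba1a, Dcn and the neuron markers were named after their values were seen. Of the listed genes Tuba1b, Tuba1c, Tuba3a, Tubal3, Map7d3 and Vash1 were not analysed here. Promoter windows and their shares came from the RefSeq table for GRCm38.p6. Alternatives were other scalings, other choices of probe set, a filter on dim genes, other fits and priors, other tests and fold thresholds, the replicate block and leaving out each array.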

Additional observations from a re-analysis of the deposited data

Results flagged for a closer look

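A probe set outside the comparisons, because it names the pseudogene Tubb2a-ps2 together with Tubb2b, gave a signal above its level in tissue. It was at 5.23, 4.90 and 5.14 (log2) on neurosphere arrays 1 to 3, 5.31, 5.36 and 5.62 on cultured cell arrays and 3.09, 3.47 and 3.06 on tissue arrays. No culture array overlapped with tissue, and the differences were 1.88 (SE 0.14) in neurospheres and 2.22 (SE 0.13) in cultured cells. The tissue values lie within the 2.56 to 3.53 seen for genes of the Y chromosome in cultured cells, the level of dim probe sets.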

How the results depend on the processing

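Each log2 fold change was computed under 19 alternatives, or 18 where a gene was filtered out, as Dcx was with the dimmest 40% of genes (mean under 6.48). Of these values 542 kept their direction and their side of the threshold. The 9 falls and the rise against tissue held in every fit that left out 1 array. The fall of Tubb2a was lost in both comparisons with tissue without shared probe sets. In cultured cells it also did not pass with the mean of its probe sets or with a fold change over 2. The rise of Tubb2b in neurospheres did not pass with the adjusted t-test or with a fold change over 2, which left 0 members that rose. Between neurospheres and cultured cells the 2 falls became 0 with the mean of all probe sets of a gene, 1 without shared probe sets and 0 with a fold change over 2. They ranged from 0 to 2 when arrays were left out, with 0 without neurospheres replicate 2 and 1 without cultured cells replicate 2. Of the 3 probe sets that fell there, 1 to 3 remained in number, with 1 without neurospheres replicate 2.

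Without shared probe sets Tubb2a was at 0.27, 0.16 and 0.11 in the comparisons of neurospheres and of cultured cells with tissue and between both cultures, since its other probe set took over. With the mean of its probe sets it was at -0.33 in cultured cells against tissue. Values near 0 between the cultures changed sign. Tubb3 was at -0.0074 when arrays were centred on their brighter genes and -0.14 when centred on hybridisation controls, and ranged from -0.17 to 0.14 when arrays were left out. Tuba4a was at -0.012 and Mapt at -0.11 with hybridisation controls, Mapt at -0.046 and Dcx at 0.034 with the mean of probe sets, and Mapt ranged from -0.035 to 0.10 when arrays were left out. The cause was not tested.

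Hybridisation controls shifted the median of all genes by 0.060, 0.21 and -0.15 in the 3 comparisons in the same order. They gave 4863 rises and 3262 falls in cultured cells against tissue, beside 3707 and 4011, and 1199 and 2223 between the cultures, beside 1638 and 1621. The counts of members were the same under each scaling, and list counts under the scalings were computed after seeing the data. Arrays were not paired by number in the main fits. The correlation of deviations of same-numbered arrays was -0.19 to 0.21, and 0.069 to 0.21 in cultured cells against tissue. With 3 arrays per group these values cannot show whether same-numbered arrays share a source. With the replicate block the members gave 9 falls and 1 rise in both comparisons with tissue and 2 falls between the cultures.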
